A study of Mus musculus with 20 samples.

Results

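The platelet-derived growth factor (PDGF) family was followed in mouse liver through its 6 classical genes, the ligand genes Pdgfa, Pdgfb, Pdgfc and Pdgfd and the receptor genes Pdgfra and Pdgfrb. They were taken by gene symbol from a table of 38924 genes, and all 6 had a row and were abundant enough to be tested. PDGF ligands are disulfide-linked dimers that bring receptor tyrosine kinases together at the cell surface. PDGFRα binds A, B and C chains, whereas PDGFRβ binds B and D chains. In the liver, PDGF-B acting on PDGFRβ is known as a strong mitogen for hepatic stellate cells, the pericytes that turn into collagen-producing myofibroblasts during fibrosis.

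The study asked how loss of thrombospondin-1 (TSP-1, the product of Thbs1) alters the liver in a diet model of steatohepatitis with fibrosis. Male C57BL/6J mice (WT) and TSP-1 null mice, a whole-body germline knockout, were bought at 5 weeks of age and acclimated for 1 week. For 12 weeks they then ate control chow or a choline deficient high fat diet with L-amino acids in place of protein (CDAHFD). Each group held 5 mice, WT on control diet (NDWT), TSP-1 null on control diet (NDKO), WT on CDAHFD (HFWT) and TSP-1 null on CDAHFD (HFKO). Poly(A) RNA of whole liver tissue was sequenced, 1 library per mouse. In such bulk RNA, fewer cells of a type and less RNA per cell cannot be told apart.

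The targeted gene did not separate the genotypes as labelled. On control diet Thbs1 was at 0.197 ± 0.103 FPKM (SD, n = 5) in WT and at 1.30 ± 0.390 FPKM in libraries labelled TSP-1 null. On CDAHFD it was at 4.62 ± 1.22 FPKM in WT and at 3.44 ± 0.547 FPKM in libraries labelled TSP-1 null. Libraries labelled TSP-1 null on control diet held 112 to 207 Thbs1 fragments, against 6 to 33 in the WT libraries on that diet. The genotype of these libraries is therefore given as labelled, and every genotype direction below rests on the labels. Whether the Thbs1 reads come from an intact transcript was not tested. Hepatocyte markers, which include Alb and Apoa1, summed to between 31100 and 52700 FPKM over the 20 libraries.

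All 6 PDGF genes were higher on CDAHFD, and for every one of them the 10 libraries on CDAHFD lay above the 10 on control diet. In WT mice the log2 fold changes ran from 2.37 for Pdgfc to 3.20 for Pdgfb, and in mice labelled TSP-1 null from 1.84 for Pdgfc to 2.60 for Pdgfrb. A call needed an FDR under 0.05 in limma and an absolute log2 fold change above 0.58. By this rule 6 of 6 members were called higher in WT, where 44.1% of the 14524 tested genes were called higher. In mice labelled TSP-1 null 6 of 6 were called higher as well, beside 41.9% of tested genes. Groups that do not overlap, with CDAHFD above control, were found for 50.5% of tested genes in WT and 52.7% in mice labelled TSP-1 null.

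Calls were thus common among all genes, and the sizes of the changes are given beside the sizes over all genes. The median log2 fold change of the 6 members was 2.67 in WT and 2.31 in mice labelled TSP-1 null, against 0.53 and 0.50 for all tested genes. Relative to these all-gene medians the members changed by 1.83 to 2.67 in WT and by 1.34 to 2.10 in mice labelled TSP-1 null. Between 2.12% and 6.73% of tested genes had a larger log2 fold change than a member in WT, and between 3.73% and 10.8% in mice labelled TSP-1 null. Under median-of-ratios scaling between libraries the members' log2 fold changes were 1.84 to 2.67 in WT and 1.34 to 2.08 in mice labelled TSP-1 null, and all 12 stayed above the call threshold. Quantile normalization gave smaller values that also stayed above it, the smallest 1.48 in WT and 1.00 in mice labelled TSP-1 null, both for Pdgfc.

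**Figure D1:**
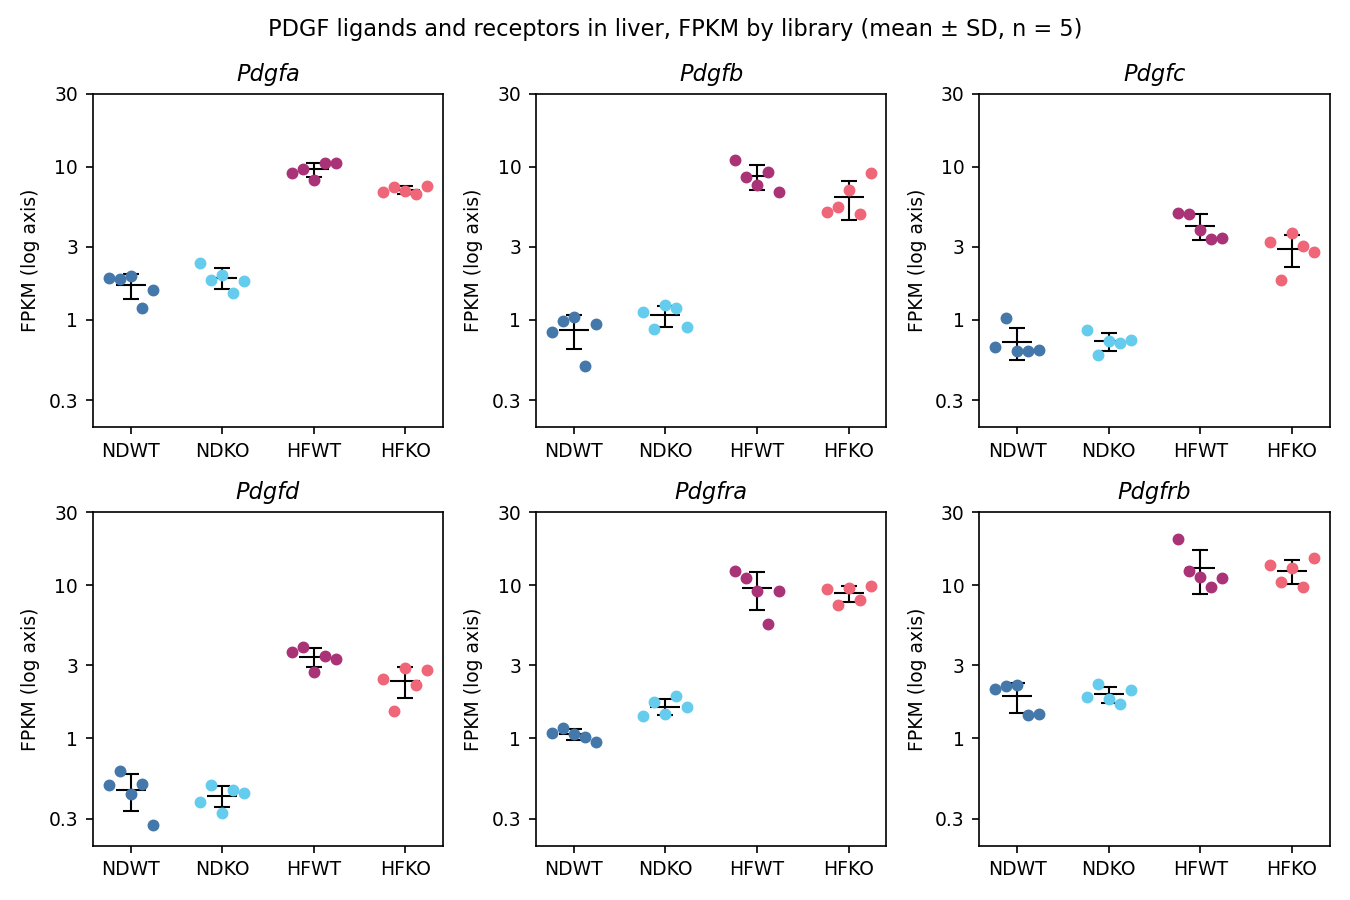
FPKM (log axis) of the 6 PDGF genes in NDWT, NDKO, HFWT and HFKO, with 1 point per library and bars for mean ± SD (n = 5). In each panel the 10 CDAHFD libraries lie above the 10 control libraries, and the highest Pdgfrb value is 19.919 FPKM in HFWT.

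Of the ligands, Pdgfa was the most abundant at baseline. It encodes the A chain, a PDGFRα ligand that proprotein convertases cleave inside the cell, and lies on the minus strand of chromosome 5 at chr5:138976014-138997370 (GRCm38). In NDWT the 5 libraries read 1.887, 1.844, 1.927, 1.196 and 1.559 FPKM, and in NDKO 2.346, 1.834, 1.972, 1.504 and 1.808 FPKM. In HFWT they read 9.117, 9.613, 8.176, 10.496 and 10.628 FPKM, and in HFKO 6.883, 7.42, 6.933, 6.586 and 7.487 FPKM. The genotypes overlapped on control diet, but on CDAHFD every HFWT library was above every HFKO library. Pdgfa also had the smallest spread of the 6 genes on CDAHFD, with an SD of 10.6% of the mean in HFWT and 5.41% in HFKO.

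The diet difference of Pdgfa was a log2 fold change of 2.46 (SE 0.12) in WT and 1.86 (SE 0.12) in mice labelled TSP-1 null. An antisense gene, 6330403L08Rik, shares 813 exon bases with Pdgfa in GENCODE M21. Its own level was 0.26 to 0.688 FPKM on control diet and 1.247 to 2.452 FPKM on CDAHFD, and its part in the Pdgfa values was not tested.

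Pdgfb encodes the B chain, the ligand of both receptors and the one best known for driving stellate cells and pericytes. The gene lies on the minus strand at chr15:79995900-80014808. Its 5 NDWT libraries read 0.839, 0.986, 1.04, 0.499 and 0.945 FPKM, and its NDKO libraries 1.129, 0.875, 1.246, 1.201 and 0.898 FPKM. On CDAHFD the HFWT libraries read 10.987, 8.602, 7.573, 9.277 and 6.82 FPKM, and the HFKO libraries 5.029, 5.434, 7.049, 4.924 and 9.135 FPKM. The lowest CDAHFD library stood 3.95 times above the highest control library, and the genotypes overlapped on both diets. HFKO replicates 3 and 5, at 7.049 and 9.135 FPKM, lay within the range of HFWT.

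In WT the log2 fold change of Pdgfb was 3.20 (SE 0.19), the highest of the 6 members, and in mice labelled TSP-1 null it was 2.43 (SE 0.19). The 95% CIs of these values were 2.81 to 3.60 and 2.03 to 2.82.

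Pdgfc and Pdgfd encode the ligands that are secreted in a latent form. Their CUB domains must be cut off outside the cell, by tissue plasminogen activator for PDGF-C and by urokinase or matriptase for PDGF-D, before the growth factor domain can bind PDGFRα (C chain) or PDGFRβ (D chain). Pdgfc lies on the plus strand at chr3:81036416-81214040. Pdgfd lies on the plus strand at chr9:6168612-6378843.

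The 250 bases before the RefSeq transcript start are shown for the 3 members whose window lies outside annotated exons. They are read 5′ to 3′ on the gene's strand of GRCm38.p6. Capitals mark matches to the motifs searched on both strands, and no match overlapped that of another motif. The first was GGGCGG, the GC box of Sp1 factors. AP-1 sites were searched as TGANTCA. The TATA box was taken as TATAAA. Smad sites were searched as CAGAC, and the CArG box of serum response factor by its consensus.
Pdgfc, chr3:81036166-81036415: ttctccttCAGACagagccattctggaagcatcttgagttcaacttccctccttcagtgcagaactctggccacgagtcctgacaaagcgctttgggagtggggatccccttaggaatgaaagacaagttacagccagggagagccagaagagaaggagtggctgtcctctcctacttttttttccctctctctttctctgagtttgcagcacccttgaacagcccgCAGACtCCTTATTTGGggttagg
Pdgfd, chr9:6168236-6168485: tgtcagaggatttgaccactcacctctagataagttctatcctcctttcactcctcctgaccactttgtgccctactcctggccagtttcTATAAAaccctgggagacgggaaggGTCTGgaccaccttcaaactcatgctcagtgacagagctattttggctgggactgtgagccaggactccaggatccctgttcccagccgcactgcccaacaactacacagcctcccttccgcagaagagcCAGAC
Pdgfra, chr5:75152001-75152250: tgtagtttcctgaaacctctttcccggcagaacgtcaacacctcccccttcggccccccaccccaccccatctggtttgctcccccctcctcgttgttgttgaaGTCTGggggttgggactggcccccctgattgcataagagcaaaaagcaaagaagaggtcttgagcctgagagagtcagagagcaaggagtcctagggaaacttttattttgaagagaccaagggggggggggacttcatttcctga

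The CArG box in the Pdgfc window begins 17 bases before the start, and it has no counterpart in the other windows shown. CArG boxes occurred in 1.47% of 32851 RefSeq promoter windows of the same length. CAGAC was present in all 3 windows, at 242 and 23 bases before the start in Pdgfc, at 135 and 5 in Pdgfd and at 146 in Pdgfra, and in 42.2% of all windows. TATAAA occurred once, 160 bases before the Pdgfd start, and in 12.4% of all windows. None of the 3 windows held GGGCGG or TGANTCA, which were present in 32.7% and 6.75% of all windows. These matches describe letters and not binding.

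For Pdgfc the NDWT libraries read 0.667, 1.024, 0.629, 0.63 and 0.64 FPKM, and the NDKO libraries 0.866, 0.588, 0.725, 0.713 and 0.739 FPKM. On CDAHFD the HFWT libraries read 4.963, 4.901, 3.877, 3.399 and 3.41 FPKM, and the HFKO libraries 3.248, 1.822, 3.681, 3.032 and 2.774 FPKM. NDWT replicate 2 stood above the other control WT libraries, HFKO replicate 2 was the lowest CDAHFD library, and the genotypes overlapped on both diets. The log2 fold change with diet was 2.37 (SE 0.17) in WT and 1.84 (SE 0.17) in mice labelled TSP-1 null.

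Pdgfd was the least abundant member in all 4 groups. Its NDWT libraries read 0.496, 0.615, 0.432, 0.504 and 0.273 FPKM, and its NDKO libraries 0.388, 0.494, 0.326, 0.461 and 0.444 FPKM. The HFWT libraries read 3.683, 3.964, 2.704, 3.456 and 3.283 FPKM, and the HFKO libraries 2.454, 1.517, 2.887, 2.239 and 2.81 FPKM. Again HFKO replicate 2 was the lowest CDAHFD library, and the genotypes overlapped on both diets. The log2 fold change with diet was 2.66 (SE 0.18) in WT and 2.22 (SE 0.18) in mice labelled TSP-1 null. On control diet Pdgfd rested on 17 to 36 fragments per library, and it passed the filter on low values only through its CDAHFD libraries, so its call in the diet comparisons was favoured by the filter.

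Of the receptors, Pdgfrb was the more abundant. It encodes PDGFRβ, a receptor widely used as a marker of stellate cells and pericytes, and lies on chromosome 18. In NDWT its libraries read 2.118, 2.21, 2.225, 1.415 and 1.455 FPKM, and in NDKO 1.875, 2.258, 1.796, 1.69 and 2.077 FPKM. In HFWT they read 19.919, 12.41, 11.247, 9.71 and 11.078 FPKM, and in HFKO 13.609, 10.445, 12.98, 9.707 and 14.924 FPKM. HFWT replicate 1 was far above the other HFWT libraries, and the genotypes overlapped on both diets. That library also had the highest summed FPKM of 12 myofibroblast markers, 339.3, where the other HFWT libraries had 163.5 to 242.1. The log2 fold change of Pdgfrb with diet was 2.69 (SE 0.18) in WT and 2.60 (SE 0.18) in mice labelled TSP-1 null. Without HFWT replicate 1 the value in WT was 2.52.

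Pdgfra encodes PDGFRα, the receptor of A, B and C chains, which marks fibroblasts and stellate cells of the liver. It lies on the plus strand at chr5:75152291-75198204. Its NDWT libraries read 1.09, 1.174, 1.076, 1.029 and 0.952 FPKM, and its NDKO libraries 1.395, 1.731, 1.453, 1.885 and 1.608 FPKM. On CDAHFD the HFWT libraries read 12.456, 11.13, 9.196, 5.596 and 9.205 FPKM, and the HFKO libraries 9.405, 7.43, 9.605, 8.021 and 9.884 FPKM. The genotypes did not overlap on control diet, where every NDKO library was above every NDWT library, and overlapped on CDAHFD. HFWT replicate 4 was the lowest CDAHFD library, and it also had the lowest summed stellate cell markers among the CDAHFD libraries, 260.5 FPKM against 324.8 to 467.1 in the others. The log2 fold change with diet was 3.00 (SE 0.15) in WT and 2.39 (SE 0.15) in mice labelled TSP-1 null. In GENCODE M21 the antisense genes Gm42802 and Gm42803 share 456 and 166 exon bases with Pdgfra, and they were not analysed here.

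In all 4 groups Pdgfrb had the highest mean level of the 6 genes and Pdgfd the lowest, with Pdgfc next above Pdgfd. Pdgfrb overlapped with its neighbour in that order in every group, which was Pdgfa in NDWT, NDKO and HFWT and Pdgfra in HFKO. Pdgfc and Pdgfd did not overlap on control diet, and overlapped on CDAHFD. Pdgfb and Pdgfc overlapped in NDWT and were separate in the other 3 groups. Levels are per length in FPKM, so these orders compare genes.

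Summed over the 4 ligands, the level on control diet was 3.73 ± 0.627 FPKM (SD, n = 5) in WT and 4.11 ± 0.391 FPKM in libraries labelled TSP-1 null. On CDAHFD it was 25.8 ± 2.54 FPKM in WT and 18.7 ± 2.59 FPKM in libraries labelled TSP-1 null. Pdgfa made up a median of 45.6% of this sum in NDWT and 46.5% in NDKO, against 36.6% in HFWT and 39.1% in HFKO. The median share of Pdgfb was 22.1% (NDWT) and 23.9% (NDKO) on control diet and 33.9% (HFWT) and 33.6% (HFKO) on CDAHFD. Pdgfc stayed between median shares of 17.3% and 18.7%, and Pdgfd between 11.4% and 13.3%. By these medians ligand mRNA held relatively more Pdgfb and less Pdgfa on CDAHFD, while the shares of Pdgfc and Pdgfd had similar medians on both diets. The shares were not tested, and those of Pdgfa overlapped between the diets in both genotypes. Those of Pdgfb did not overlap in WT (17.64% to 27.66% in NDWT, 28.25% to 38.22% in HFWT). In mice labelled TSP-1 null they did (23.08% to 30.96% in NDKO, 28.55% to 41.14% in HFKO).

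**Figure D2:**
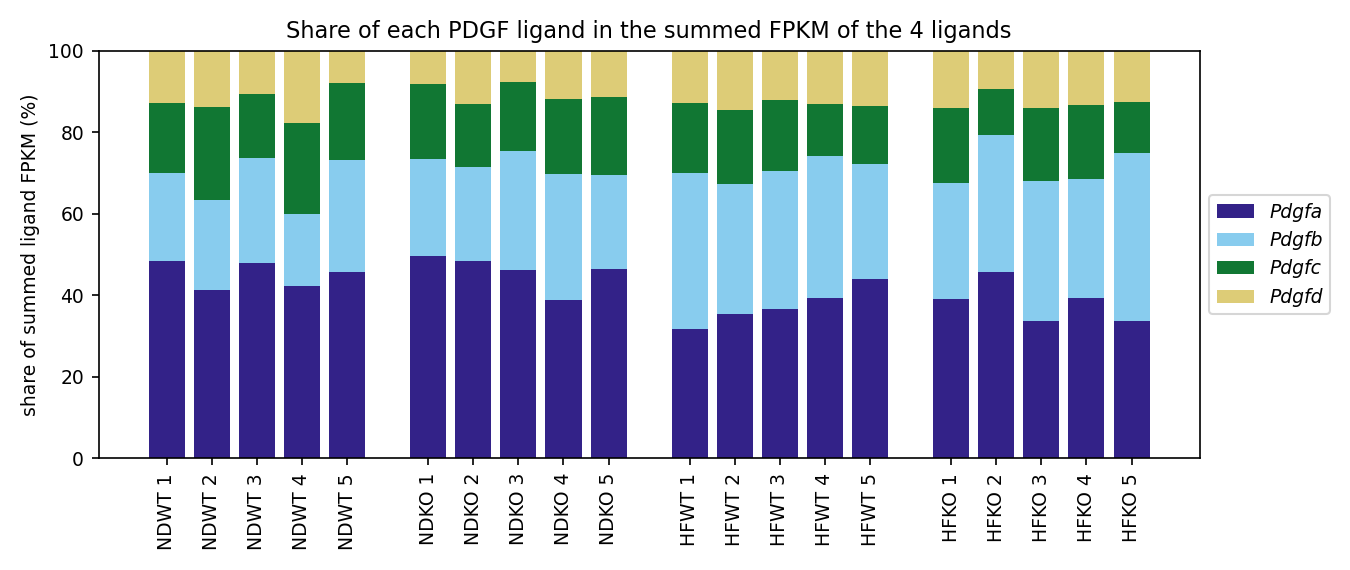
Share (%) of Pdgfa, Pdgfb, Pdgfc and Pdgfd in the summed FPKM of the 4 ligand genes, with 1 bar per library. The median share of Pdgfb is 22.1% in NDWT and 33.9% in HFWT, and that of Pdgfa 45.6% and 36.6%.

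The plain ratio of 2 genes within a library does not move with the scaling between libraries. Here 0.1 was added to each FPKM first, so some dependence on the scaling remains, and the ratios were not recomputed with other scalings. The log2 ratio of Pdgfb to Pdgfa was −0.91 ± 0.19 (SD, n = 5) in NDWT and −0.16 ± 0.32 in HFWT, and the groups did not overlap. This difference of 0.74 had an exact permutation p of 0.00794, the smallest that 5 against 5 libraries allow, and a Benjamini-Hochberg adjusted value of 0.0476 over 12 tests. In mice labelled TSP-1 null the ratio was −0.77 ± 0.30 on control diet and −0.20 ± 0.33 on CDAHFD. There the difference of 0.57 had an exact permutation p of 0.0317 and missed the adjusted threshold at 0.127.

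The log2 ratio of Pdgfrb to Pdgfra differed between the genotypes on control diet. It was 0.75 ± 0.24 (SD, n = 5) in NDWT and 0.25 ± 0.23 in NDKO, without overlap, which was lower by 0.49 in libraries labelled TSP-1 null (exact permutation p = 0.00794, adjusted 0.0476). On CDAHFD the means were 0.43 in HFWT and 0.46 in HFKO, a difference of 0.03 (exact permutation p = 0.841, adjusted 0.841). For Pdgfd to Pdgfc the exact permutation p was 0.0556 to 0.841 in the 4 comparisons, and none passed after adjustment. With a pseudocount of 1 in place of 0.1, neither of the ratio differences that had passed did so, at adjusted values of 0.159 for Pdgfb to Pdgfa and 0.143 for Pdgfrb to Pdgfra.

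**Figure D3:**
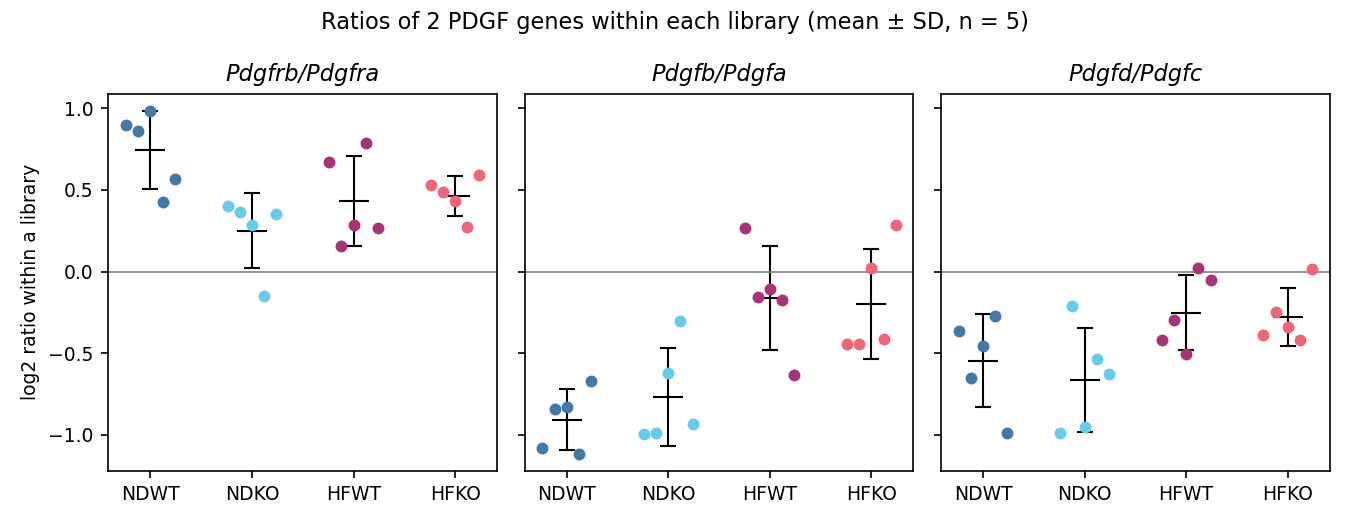
Log2 ratios of Pdgfrb to Pdgfra, Pdgfb to Pdgfa and Pdgfd to Pdgfc within each library, by group, with bars for mean ± SD (n = 5). Pdgfb/Pdgfa is higher in all 5 HFWT libraries than in all 5 NDWT libraries, and Pdgfrb/Pdgfra is higher in all 5 NDWT libraries than in all 5 NDKO libraries.

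Between the genotypes on control diet, Pdgfra was the only member whose libraries did not overlap. Its log2 fold change was 0.55 in libraries labelled TSP-1 null relative to WT (95% CI 0.23 to 0.88), with an FDR of 0.0231 in limma. As the fold change was below the threshold of 0.58, 0 of 6 members were called, where 4.77% of tested genes were called in either direction. Groups that do not overlap, with NDKO higher, were found for 2.33% of tested genes. At an unadjusted p under 0.05 the count was 1 of 6 members, against 27.3% of tested genes, and voom on recovered fragments called 0. The other 5 log2 fold changes ran from −0.09 for Pdgfd to 0.31 for Pdgfb.

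The Pdgfra difference stood near the threshold. It passed with a pseudocount of 0.01, with median-of-ratios scaling and without NDWT replicate 2, NDKO replicate 1 or NDKO replicate 3 (log2 fold changes of 0.59, 0.63, 0.59, 0.60 and 0.59), and its FDR ranged from 0.00793 to 0.111 over the alternatives. Beside it, the summed level of 12 stellate cell markers was 126.4 to 177.0 FPKM in NDWT and 176.7 to 200.9 FPKM in NDKO. Their median log2 fold change was 0.30, and 1 of 12 was called higher. Of 12 myofibroblast markers 0 were called higher and 1 lower, Acta2, the gene of smooth muscle actin, at −1.13 (SE 0.29) on the log2 scale. Acta2 was not called with a pseudocount of 1, with only the compared groups or with voom. It rested on 19 to 29 fragments per NDWT library and 3 to 18 per NDKO library. The part of stellate cell number in the Pdgfra difference was not tested.

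On CDAHFD all 4 ligands had negative log2 fold changes in libraries labelled TSP-1 null relative to WT, while both receptors were near 0. The values were −0.43 for Pdgfa (95% CI −0.69 to −0.18), −0.47 for Pdgfb, −0.50 for Pdgfc and −0.53 for Pdgfd, with FDRs in limma of 0.0861, 0.210, 0.146 and 0.143. No ligand passed the FDR threshold, so 0 of 6 members were called, where 0.496% of tested genes were. At an unadjusted p under 0.05 the count was 4 of 6 members, the 4 ligands, against 17.2% of tested genes. Pdgfa did not overlap between HFWT and HFKO, and such separation with HFKO lower was found for 4.13% of tested genes.

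With voom on recovered fragments, Pdgfa reached an FDR of 0.0168 at a log2 fold change of −0.44, below the fold threshold, and 0 members were called. For the receptors the log2 fold change was −0.06 for Pdgfra (95% CI −0.38 to 0.26) and −0.03 for Pdgfrb (95% CI −0.40 to 0.34), and both turned to a positive value under median-of-ratios scaling (0.04 and 0.07). All tested genes had a median log2 fold change of −0.10 in this comparison. Relative to that median the ligands lay at −0.34 (Pdgfa), −0.37 (Pdgfb), −0.40 (Pdgfc) and −0.43 (Pdgfd). Marker lists had medians of −0.71 (mesothelial), −0.36 (cholangiocyte), −0.23 (macrophage), 0.10 (endothelial) and 0.25 (hepatocyte) in this comparison. Stellate cell, myofibroblast, platelet and vascular smooth muscle markers had medians from −0.08 to −0.03. Of all these markers 0 were called, and the part of cell types in the ligand values was not tested.

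**Figure D4:**
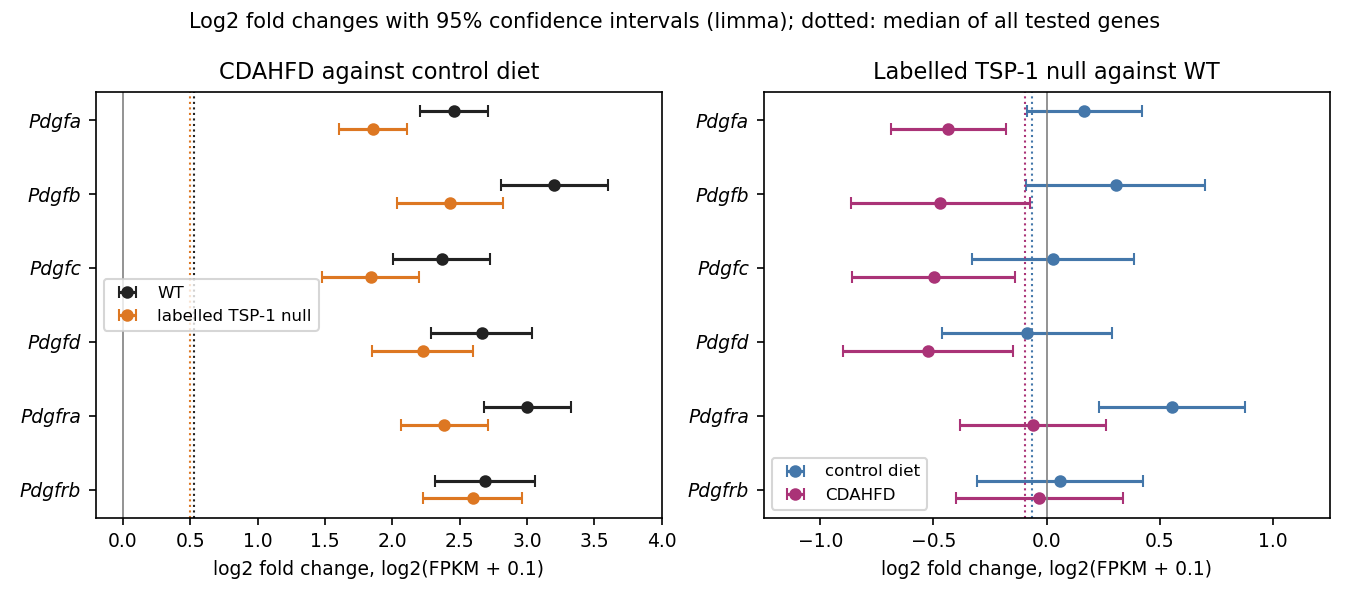
Log2 fold changes of the 6 PDGF genes with 95% confidence intervals from limma, for CDAHFD against control diet in each genotype (left) and for the labelled genotypes on either diet (right), with dotted lines at the median of all tested genes. The lowest bound of the diet intervals is 1.48, and on CDAHFD the 4 ligand values lie between −0.53 and −0.43.

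Whether diet acted differently in the genotypes was tested as an interaction. The interaction was negative for all 6 members, from −0.78 for Pdgfb to −0.09 for Pdgfrb, and 0 of 6 were called, as were 0.647% of tested genes. At an unadjusted p under 0.05 the count was 4 of 6 members (Pdgfa, Pdgfb, Pdgfc and Pdgfra), against 15.1% of tested genes, and voom called 0. For Pdgfa the interaction was −0.60 (SE 0.17, limma FDR 0.0941), and for Pdgfra −0.61 (SE 0.22, FDR 0.183). Leaving out HFWT replicate 4, the library with the low Pdgfra value, moved the latter to −0.79 with an FDR of 0.0313, which passed. The other 30 of 31 alternatives left the Pdgfra interaction uncalled. The 95% CI of the interaction ran from −0.96 to −0.24 for Pdgfa and from −0.61 to 0.43 for Pdgfrb.

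Of 8 PDGF-activating proteases 3 were called higher and 0 lower on CDAHFD in WT, a smaller share than the 44.1% of all tested genes, and the same counts held in mice labelled TSP-1 null. With quantile normalization the counts in WT were 3 higher and 2 lower. The 3 called higher were the secreted or membrane-bound enzymes that cut PDGF-C and PDGF-D. Plat, the gene of tissue plasminogen activator, went from 0.125 ± 0.103 FPKM (SD, n = 5) in NDWT to 7.48 ± 1.53 in HFWT, a log2 fold change of 5.16 (SE 0.24). St14, the gene of matriptase, rose by a log2 fold change of 4.14 (SE 0.23), and Plau, the gene of urokinase, by 3.56 (SE 0.24). All 3 were also called higher in mice labelled TSP-1 null (4.69, 3.85 and 3.17). The median over the list, which also holds the furin-type convertases, was 0.27 in WT, below the 0.53 of all tested genes. On control diet Plat rested on 2 to 17 fragments per library. Plat and St14 were above the filter of 0.5 FPKM in 0 of 10 control libraries and passed it only through the CDAHFD libraries, so their calls were favoured by the filter.

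Of 9 tested genes for PDGF-binding and co-receptor proteins 5 were called higher in WT and 6 in mice labelled TSP-1 null, and 0 lower. The shares called higher over all tested genes were 44.1% and 41.9%. Sparc, whose product binds PDGF chains in the matrix, rose from 15.7 ± 1.30 FPKM (SD, n = 5) in NDWT to 93.5 ± 24.1 in HFWT, a log2 fold change of 2.53 (SE 0.13). Itgav, an integrin chain that associates with PDGFRβ signaling, rose by 1.27 (SE 0.10). The targeted gene Thbs1, whose product binds PDGF, is on this list and rose by 4.03 (SE 0.24) in WT. On control diet Itgb3 was higher in libraries labelled TSP-1 null by 0.69 (SE 0.17) and Pdgfrl, a secreted receptor-like protein, lower, at −1.14 (SE 0.27). With a pseudocount of 1 neither was called, at 0.41 and −0.31. Pdgfrl rested on 11 to 43 fragments per NDWT library and 2 to 12 per NDKO library.

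Of 40 PDGF receptor signal transducers 18 were called higher and 0 lower in WT, and 21 and 0 in mice labelled TSP-1 null. Among all tested genes 44.1% and 41.9% were called higher. The list medians of 0.49 and 0.62 were close to those of all tested genes. Src, a kinase that docks on the activated receptor, rose by 2.80 (SE 0.16) in WT, the adaptor Gab2 by 2.11 (SE 0.14) and Nras by 1.09 (SE 0.09). With median-of-ratios scaling the counts were 6 higher and 4 lower in WT and 7 and 2 in mice labelled TSP-1 null, so the direction of this list depended on the scaling.

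Of 24 negative regulators of PDGF receptors, 14 were called higher and 0 lower in WT and 20 and 0 in mice labelled TSP-1 null. Among all tested genes 44.1% and 41.9% were called higher. The MAP kinase phosphatase gene Dusp4 rose by 2.11 (SE 0.23), the adaptor gene Grb10 by 2.01 (SE 0.17) and the ubiquitin ligase gene Cbl by 1.41 (SE 0.17) in WT. Under median-of-ratios scaling 5 were higher and 1 lower in WT, and 6 and 0 in mice labelled TSP-1 null. In that setting 3299 of all 14524 tested genes were higher in WT and 3225 in mice labelled TSP-1 null. Quantile normalization gave list counts of 5 and 1 and of 5 and 0. Grb10 was above 0.5 FPKM in 0 of 10 control libraries and passed the filter only through the CDAHFD libraries. On control diet 3 of the 24, all feedback inhibitors of the Ras and ERK cascade, were called lower in libraries labelled TSP-1 null and 0 higher, where 4.77% of all tested genes were called in either direction. They were Spred1 at −0.92 (SE 0.13), Dusp6 at −0.77 (SE 0.20) and Spry4 at −0.69 (SE 0.22). With only the compared groups in the fit Spred1 alone stayed called, and with median-of-ratios scaling or quantile normalization 1 gene of the list was higher and 2 lower. Spry4 lost its call in 20 of 32 alternatives, and Dusp6 also without NDWT replicate 1.

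Early response genes that PDGF is known to induce, most of which other growth factors induce as well, were higher almost throughout. In WT 18 of 19 tested genes were called higher, and in mice labelled TSP-1 null 19 of 19, with 0 lower and medians of 1.78 and 2.19. The shares called higher over all tested genes were 44.1% and 41.9%. Under median-of-ratios scaling 14 and 16 were higher and 0 lower. Egr2, a zinc finger transcription factor, was at 0.082 ± 0.0290 FPKM (SD, n = 5) in NDWT and 4.03 ± 0.547 in HFWT, a log2 fold change of 4.51 (SE 0.21), resting on 3 to 7 fragments per NDWT library. Plaur, the urokinase receptor, rose by 4.41 (SE 0.21) and the cyclin gene Ccnd1 by 3.31 (SE 0.19). Egr2 was above 0.5 FPKM in 0 and Plaur in 2 of 10 control libraries, so both passed the filter through the CDAHFD libraries.

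Of the same 19 tested early response genes, 5 were called between the genotypes on control diet, where 4.77% of all tested genes were called. The chemokine gene Ccl2 was lower in libraries labelled TSP-1 null, at −1.63 (SE 0.23). It rested on only 11 to 17 fragments per NDWT library and 1 to 6 per NDKO library. Also lower were Ccnd1 at −0.62 (SE 0.19) and Jun at −1.39 (SE 0.38), which was named after its values were seen. Myc was higher, at 1.20 (SE 0.21), and was called in all 32 alternatives. The call of Ccnd1 was lost in 13 of 32, that of Jun in 3 (with only the compared groups and without NDWT replicate 2 or NDKO replicate 1) and that of Ccl2 in 1 (a pseudocount of 1). On CDAHFD 1 of the 19 was called, beside 0.496% of all tested genes. It was Egr1, a zinc finger transcription factor, higher at 1.61 (SE 0.36, limma FDR 0.0321). Its levels in HFKO spread from 14.4 to 61.6 FPKM. That call was lost with the replicate block (FDR 0.0655), with only the compared groups (FDR 0.0933) and on leaving out HFWT replicate 1, 2, 3 or 5 or HFKO replicate 2, 3 or 4.

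The relatives of the PDGF receptors were higher too. Of 7 genes for the other class III receptor kinases (Kit, Csf1r, Flt3) and their ligands, 6 were called higher in WT and 7 in mice labelled TSP-1 null. Among all tested genes 44.1% and 41.9% were called higher. Csf1, the ligand of the macrophage receptor CSF1R, rose by 1.72 (SE 0.13) in WT, Il34, its other ligand, by 1.56 (SE 0.14), and Flt3 by 2.42 (SE 0.20). Flt3 was above 0.5 FPKM in 0 of 10 control and 8 of 10 CDAHFD libraries, so it passed the filter only through the diet on which it was higher. The median of this list was 1.45 in WT, which lay below the 2.67 of the PDGF genes themselves.

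Markers of the cells that make or receive PDGF moved with diet beside the members. The summed level of 12 stellate cell markers was 126.4 to 177.0 FPKM in NDWT and 260.5 to 467.1 FPKM in HFWT, and that of 12 myofibroblast markers 11.5 to 16.4 and 163.5 to 339.3 FPKM. For macrophage markers the sums were 220.2 to 287.2 FPKM in NDWT and 1190 to 1619 FPKM in HFWT, and for cholangiocyte markers 21.6 to 25.3 and 310.0 to 519.6 FPKM. Endothelial markers moved less, from 73.9 to 79.1 FPKM in NDWT to 68.1 to 100.4 FPKM in HFWT. Platelet and megakaryocyte markers, whose cells store PDGF protein, summed to 2.94 to 4.35 FPKM in NDWT and 11.8 to 15.7 FPKM in HFWT, and Gp6 was at 0 in all 5 NDWT libraries.

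Counted by gene in WT, 11 of 12 stellate cell, 12 of 12 myofibroblast, 9 of 11 macrophage, 8 of 8 cholangiocyte, 3 of 11 endothelial, 4 of 5 platelet, 4 of 4 vascular smooth muscle and 3 of 3 mesothelial markers tested were called higher. In mice labelled TSP-1 null the counts were 10, 12, 9, 8, 4, 2, 4 and 1. Called lower were 1 macrophage marker in both comparisons and 0 markers of the other cell types just named. Over all tested genes 44.1% were called higher in WT and 41.9% in mice labelled TSP-1 null. Of 12 hepatocyte markers 1 was called higher and 4 lower in both comparisons. Over all tested genes 4.62% were called lower in WT and 4.0% in mice labelled TSP-1 null. Several of these counts depended on the scaling. In WT the endothelial markers turned from 3 higher and 0 lower to 0 higher and 3 lower with median-of-ratios scaling and with quantile normalization. With these scalings 7 and 7 stellate cell, 2 and 2 platelet, 2 and 1 vascular smooth muscle and 1 and 0 mesothelial markers were higher in WT. Of these, 1 stellate cell marker was lower with median-of-ratios scaling and 1 platelet marker with quantile normalization. The macrophage list kept 1 lower marker with both. Hepatocyte markers with median-of-ratios scaling were 1 higher and 11 lower in WT and 1 and 8 in mice labelled TSP-1 null, and with quantile normalization 1 and 1 and 1 and 2. Myofibroblast (12 and 12), macrophage (9 and 9) and cholangiocyte (7 and 7) counts in WT moved by at most 1. The part of these cell types in the rise of the PDGF genes was not tested.

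**Figure D5:**
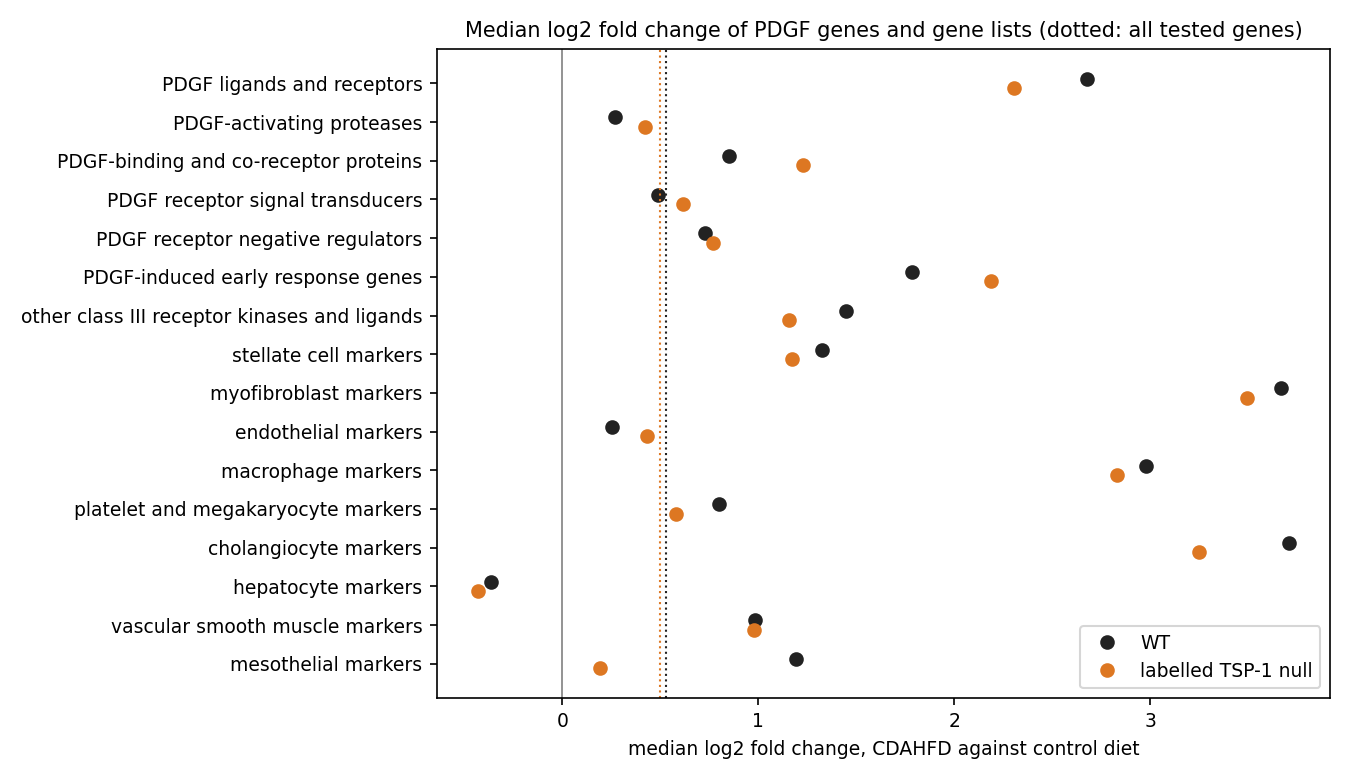
Median log2 fold change, CDAHFD against control diet, of the 6 PDGF genes and of 15 gene lists, in WT and in mice labelled TSP-1 null, with dotted lines at the median of all tested genes. The PDGF genes lie at 2.67 and 2.31, above all pathway lists in both comparisons. Above them lie the myofibroblast (3.66 and 3.49), cholangiocyte (3.71 and 3.25) and macrophage markers (2.98 and 2.83).

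The genes most like each member were found by the root mean square difference between centred log2 profiles over the 20 libraries, where a smaller value is more alike. For Pdgfrb they were Src (0.15), Clip2 (0.17) and Sparc (0.18), and for Pdgfra Robo2 (0.19), Dkk3 (0.20) and Lama2 (0.21), an axon guidance receptor, a secreted Dickkopf protein and a basement membrane laminin chain. Among the genes most like Pdgfa were Dapp1 (0.20) and Flt3 (0.21). Pdgfb was nearest to Amz1 (0.22), Rgs10 (0.23) and Ckb (0.23), Pdgfc to Ankrd55 (0.19), Ccdc88c (0.22) and Mmgt2 (0.23), and Pdgfd to Zfp651 (0.21), Cbx6 (0.23) and Dzip1l (0.24). These genes were picked as the nearest of all genes compared, so their smaller distances than those among the members follow from that choice. Among the members Pdgfra and Pdgfrb were the closest pair (0.27), followed by Pdgfc and Pdgfd (0.29) and by Pdgfa and Pdgfc (0.30). Ranked by nearness, Pdgfrb stood at place 13 for Pdgfra, and Pdgfra at place 49 for Pdgfrb. Pdgfd stood at place 65 for Pdgfc, and Pdgfc at place 39 for Pdgfd. Pdgfb and Pdgfc were farthest apart (0.48), with Pdgfb at place 1420 for Pdgfc and Pdgfc at place 666 for Pdgfb. All profiles share the diet step, so these distances describe the 20 libraries and carry no test.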

How the data were processed

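Liver RNA from 20 mice was analysed as 4 groups of 5, which follow the sample labels. The authors prepared directional poly(A) libraries, sequenced them on an Illumina HiSeq and deposited FPKM (fragments per kilobase of gene scaled to the fragments assigned to genes) for 38924 genes. The submitters' processing notes name STAR 2.5.2, featureCounts of Subread 1.5.1 and the human build GRCh38, while the gene coordinates of the table are those of mouse GRCm38. The strand setting of the counting is not given in the sources used here. The series text names the right medial lobe of the liver and the study's methods the right lateral lobe.

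FPKM times gene length summed to between 999999.71 and 1000000.25 in every library, and whole fragments were recovered for 100% of the checked values of each library (at least 98.75% of positive values could be checked, within 0.02 fragments beyond rounding). Totals per library ran from 15641545 to 23276322 (median 18950482.5). A floor of 3 fragments is worth 0.129 to 0.192 FPKM for a gene length of 1 kb, counting error alone considered. Within groups no library was a copy of another, with a lowest chi-square per degree of freedom of 13.0 over 40 pairs, and pairs between groups were not compared.

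Tests used limma 3.58.1 in R 4.3.3 (eBayes with trend, all 20 libraries in 1 fit) on log2(FPKM + 0.1) for the 14524 genes above 0.5 FPKM in at least 5 libraries, with p-values adjusted by Benjamini-Hochberg (FDR) over all of them within a comparison. A gene was called at an FDR under 0.05 with an absolute log2 fold change above 0.58. Fold changes on this scale understate those of low genes. The interaction subtracts the genotype difference on control diet from the one on CDAHFD. Ratios of 2 genes within a library were compared by two-sided exact permutation of 5 against 5 libraries, adjusted over 12 tests. On libraries simulated for the diet comparison in WT, with 14524 genes, 79 of 100 genes changed by 1 on the log2 scale were recovered. Of 100 genes changed by 2, 94 were recovered, and there were 4 false calls. The simulation changed 200 genes, as many up as down, whereas in the data 6412 genes were called higher and 671 lower. Its rates of recovery and false calls therefore do not carry over to the real diet comparison. Alternatives covered the pseudocount, the filter, the scaling, the fold threshold, the samples in the fit, the variance model, the replicate number as a block, voom on recovered fragments and leaving out each library. Sums and figures were made with Python 3.11.15.

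The members, the 6 pathway lists and the 9 marker lists (202 genes, of which 201 are in the table) were chosen with earlier results of these data known. Named were, beside the members and Thbs1, for each pathway list the 3 genes with the lowest FDR in each direction of the WT diet comparison and up to 3 called in each genotype comparison or the interaction, and for each member the 3 genes with the most similar profile. Promoter windows came from RefSeq (GRCm38.p6), which gave windows for 4 of the 6 members. A few genes that these rules name are not reported here.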

Additional observations from a re-analysis of the deposited data

Results flagged for a closer look

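Within groups of 5 libraries, 4 of 40 checks found a library far from the others by Dixon's criterion, which chance alone meets about 1 time in 20. Pdgfc in NDWT replicate 2 was at 1.024 FPKM, where the other 4 libraries had 0.629 to 0.667 FPKM. Pdgfrb in HFWT replicate 1 was at 19.919 FPKM, where the others had 9.71 to 12.41 FPKM. The log2 ratio of Pdgfrb to Pdgfra in NDKO replicate 4 was −0.15, the only value below 0 among the 20 libraries. Thbs1 in 1 HFKO library was at 4.398 FPKM, where the group median was 3.304 FPKM.

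The diet effect on Thbs1 differed between the genotypes in limma. Its interaction was −2.67 on the log2 scale (SE 0.33, FDR 0.00230).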

How the results depend on the processing

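The 12 diet results of the 6 members kept their direction and stayed above the threshold in all 264 recomputations. Quantile normalization gave the lowest of the scalings, with Pdgfc at 1.48 in WT and 1.00 in mice labelled TSP-1 null, Pdgfd at 1.71 and 1.33 and Pdgfa at 1.79 and 1.20. Of 450 recomputations of their genotype and interaction results, 425 kept direction and side of the threshold. On control diet Pdgfra passed with a pseudocount of 0.01 (0.59), median-of-ratios scaling (0.63) and no fold threshold (0.55). On CDAHFD the genotype difference of Pdgfra turned positive with median-of-ratios scaling (0.040) and quantile normalization (0.017), as did that of Pdgfrb (0.068 and 0.053). The cause was not tested.

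Leaving out 1 library at a time gave, between genotypes on control diet, 0.50 to 0.60 for Pdgfra, −0.030 to 0.15 for Pdgfc, −0.23 to 0.0058 for Pdgfd and −0.032 to 0.12 for Pdgfrb. On CDAHFD it gave −0.24 to 0.048 for Pdgfra and −0.12 to 0.14 for Pdgfrb. The interaction ranged from −0.79 to −0.51 for Pdgfra and from −0.18 to 0.077 for Pdgfrb.

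The log2 ratio differences that passed were, with a pseudocount of 1, 0.38 (Pdgfb to Pdgfa, WT, diet) and −0.30 (Pdgfrb to Pdgfra, control diet, genotype), and no longer passed. Leaving out 1 library they ranged from 0.64 to 0.86 and from −0.57 to −0.39, where 4 against 5 cannot pass after adjustment. On CDAHFD between genotypes the ranges were −0.041 to 0.12 for Pdgfrb to Pdgfra, −0.16 to 0.071 for Pdgfb to Pdgfa and −0.10 to 0.043 for Pdgfd to Pdgfc.

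Same-numbered libraries of different groups did not deviate together (correlations of −0.13 to 0.08 over 20 pairs, 4 best matched by their own number), so the numbers did not pair the samples. With the replicate block no member call changed, genes called on CDAHFD between genotypes went from 72 to 61 and list counts moved in 3 cases, among them the early response genes on CDAHFD, where Egr1 was no longer called. Paired by number the ratio differences stayed at 0.74 and −0.49, where the smallest exact p of 0.0625 cannot pass.

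Over all genes, the diet comparison in mice labelled TSP-1 null went from 6669 to 10406 genes with no fold threshold. Between genotypes on control diet 693 became 393 with a pseudocount of 1 and 1899 with no fold threshold. On CDAHFD 72 became 127 without a filter, 163 with no fold threshold, 40 with the compared groups alone, 132 with voom and 38 to 84 without 1 library. The interaction went from 94 to 54 without a filter and to 36 to 184 without 1 library. Median-of-ratios scaling turned 6412 higher and 671 lower genes in the WT diet comparison into 3299 and 2242, and 6088 and 581 in mice labelled TSP-1 null into 3225 and 1980. Of 1785 recomputed list counts 106 moved by over 1.5 times, 16 of them with median-of-ratios scaling, 15 with quantile normalization, 15 with no fold threshold and 29 without 1 library. Among class III receptor kinases in mice labelled TSP-1 null, 7 calls became 4 and 2 with the former scalings.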
